A study of Homo sapiens with 8 samples.

Results

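The genes described here are 10 components of the Toll-like receptor and interleukin-1 receptor pathway that runs through the adaptor MyD88: the kinase genes IRAK1, IRAK2, IRAK3 and IRAK4, the adaptor genes MYD88 and TRAF6, and the surface receptor genes TLR1, TLR2, TLR4 and TLR6. They were picked by symbol, with results of the same comparison already known, so their differences between groups are given as descriptions and without p-values. All 10 of 10 symbols were found among the 60710 genes of the table. Of these, 9 passed the filter on low counts, which kept 16186 genes, and IRAK3 did not.

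A375 cells are an established line grown from a human metastatic melanoma. Parental A375 cells were given 50 ng/mL human recombinant TNF for 24 h (TNF, 4 libraries) or were left untreated for the same time (NT, 4 libraries). Each of 4 independent experiments, told apart by date, gave 1 TNF and 1 NT library, numbered replicates 1 to 4. Polyadenylated RNA was sequenced, and all libraries come from 1 cell line in culture, so the values bear on these cells only.

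Toll-like receptors are membrane receptors for microbial products, best known from macrophages and other innate immune cells. TLR2 pairs with TLR1 or TLR6 to bind bacterial lipopeptides, and TLR4 binds lipopolysaccharide with the help of LY96 and CD14. Once a ligand is bound, MyD88 gathers the kinase IRAK4, which acts on IRAK1 and IRAK2, and these engage the ubiquitin ligase TRAF6, upstream of NF-kB. TNF acts through receptors of its own, which do not use MyD88 and also lead to NF-kB.

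The TNF libraries held 33317454 to 43125094 counts and the NT libraries 30989787 to 44373296. Over all 16186 genes tested, 2345 (14.5%) were higher and 1603 (9.90%) were lower in TNF-treated cells by the quasi-likelihood test of edgeR, with p-values adjusted over all genes and a threshold of 0.05. The lineage factor SOX10 was abundant in TNF and NT cells (1177 ± 86.2 and 1025 ± 53.9 CPM, SD, n = 4 each), whereas the pigment genes MLANA, PMEL, TYR and DCT were each under 0.5 CPM on average in both groups. S100B was the 1 of 8 melanoma and melanocyte markers past the threshold, at 3.05 ± 0.421 CPM in TNF and 17.3 ± 3.93 CPM in NT cells (log2 fold change -2.50, adjusted p = 6.77e-06 from edgeR), with no overlap of the groups. TYR and DCT did not pass the filter on low counts. MITF averaged 22.0 ± 2.44 CPM in TNF and 21.0 ± 1.24 CPM in NT cells, not past the threshold. S100A1 averaged 35.5 ± 18.8 CPM in TNF and 45.4 ± 14.7 CPM in NT cells, also not past it. The 11 leukocyte markers summed to 3.39 to 6.63 CPM in TNF libraries and 4.92 to 7.35 CPM in NT libraries. Among them TYROBP and MS4A1 had 0 counts in all libraries, and PTPRC, the gene of the pan-leukocyte antigen CD45, had 2 counts over the TNF libraries and 1 over the NT libraries. TNF replicate 4 and NT replicates 2 and 4 stood apart in carrying 0.0119% to 0.0124% of their counts in ribosomal, 7SK and 7SL RNA, against 0.00233% to 0.00414% in the others.

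Of the 9 genes tested, 4 were past the threshold with a higher level in TNF-treated cells (IRAK2, TLR2, MYD88 and TLR6) and 0 were past it with a lower level. Without adjustment for multiple tests, edgeR gave 5 higher and 1 lower, while DESeq2 and limma voom, both adjusted, gave 4 higher with 1 lower and 4 higher with 0 lower. With the experiment date as a replicate block, edgeR gave 5 higher, with TRAF6 added, and 2 lower, IRAK1 and TLR4. The block and the differences within an experiment rest on the dates in the sample titles, from which the NT samples' own files differ. Since the comparison served to choose the genes, their count is not evidence about the pathway beside the 14.5% of all genes that were higher. The median log2 fold change of the 9 genes was 0.33, beside -0.0035 over all genes tested. In bulk RNA, a change in the share of cells that express a gene and a change in RNA per cell cannot be told apart. CPM is a level, the count scaled to the library size and by TMM, and a log2 fold change is a difference, TNF over NT.

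**Figure D1:**
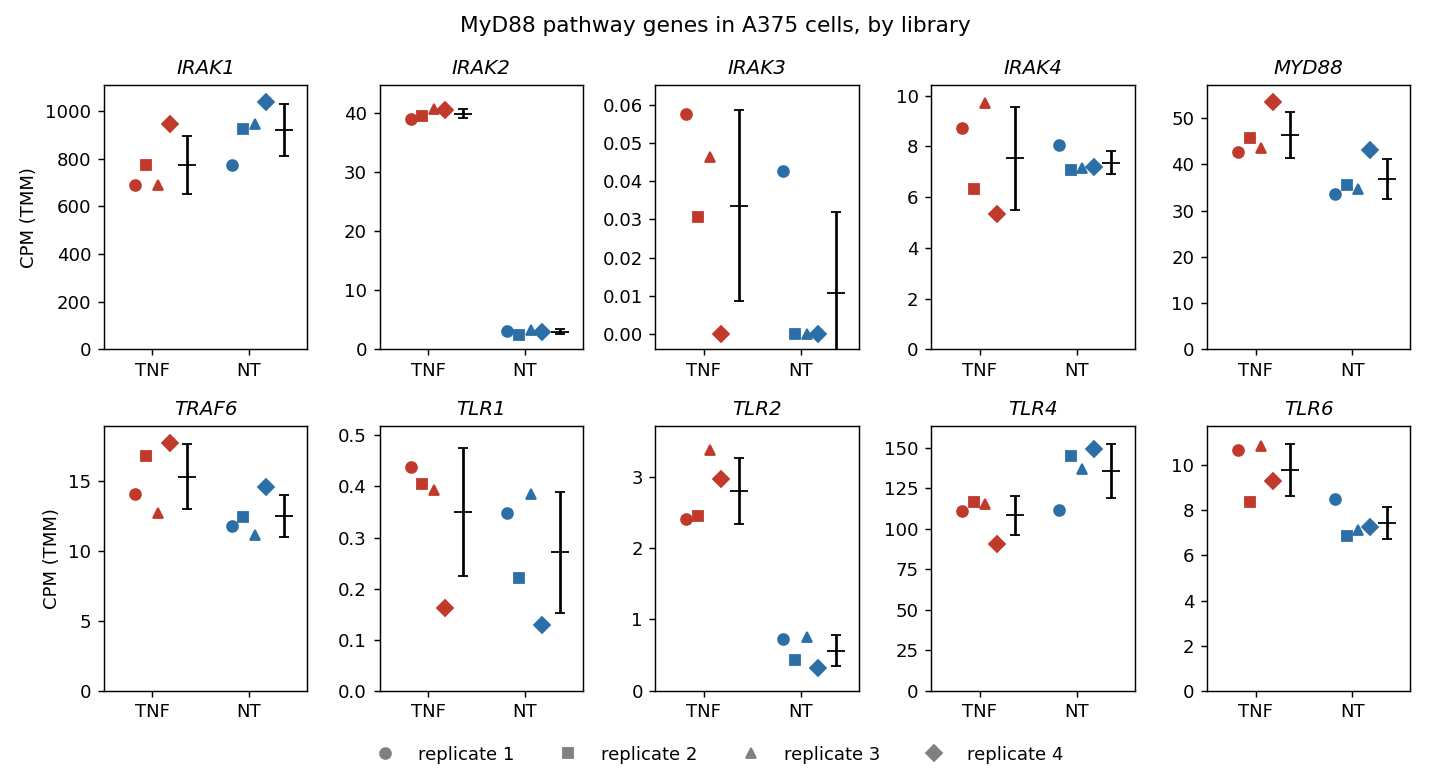
Level of each gene in CPM (y axis, linear, own scale per panel) in the 4 TNF and 4 NT libraries, with symbols for the replicate and bars for the mean ± SD; the NT bar of IRAK3 is cut at the axis. Groups are fully apart for IRAK2 (39.1 to 40.7 CPM in TNF, 2.38 to 3.30 CPM in NT) and TLR2 only.

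Among the IRAK kinases, IRAK2 differed most between groups. IRAK2 encodes a member of the kinase family that binds TRAF6 and, in mouse macrophages, sustains signalling at later times. It lies on chromosome 3 (GRCh38, 10164919 to 10243745, plus strand, 13 exons). IRAK2 had 39.1, 39.5, 40.7 and 40.5 CPM in TNF replicates 1 to 4, against 3.18, 2.38, 3.30 and 2.98 CPM in the NT replicates. All TNF libraries were above all NT libraries, and the TNF values lay within 2 CPM of each other. The log2 fold change of IRAK2 was 3.75 (SE 0.11), which is 13.5-fold with a 95% confidence interval from 11.4 to 15.9. It stood at place 94 among the 2345 genes with a higher level. Behind these levels were 1253 to 1758 counts in TNF libraries and 87 to 149 counts in NT libraries.

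The sequence just before the transcription start of IRAK2 is shown because this gene had the largest log2 fold change of the 9 genes tested. It is the RefSeq promoter window on GRCh38.p14, chr3:10164669-10164918, plus strand, from 250 bases to 1 base before the start, with capitals marking, on either strand, the matches to GGG, any 5 bases and CC.
IRAK2: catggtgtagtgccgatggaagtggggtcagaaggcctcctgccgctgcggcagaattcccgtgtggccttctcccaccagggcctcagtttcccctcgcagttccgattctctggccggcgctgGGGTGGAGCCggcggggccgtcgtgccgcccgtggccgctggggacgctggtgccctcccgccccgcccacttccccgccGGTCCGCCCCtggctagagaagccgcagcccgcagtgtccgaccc

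Neither strand of this window held GGG, any 2 bases and TTTCC, a form of the site bound by NF-kB dimers, or the NF-kB consensus. Among the 9 genes with a RefSeq promoter entry (TLR1 had none), 0 held the first form and 0 held the consensus in the 300 bases from 250 before to 50 after the start. Over all 35116 promoters of the table, 1.91% held the first form and 5.91% held the consensus. The looser form marked in capitals, which was chosen after the data were seen and takes in every match of the others, was found in 7 of the 9 promoters (not in TLR4 or TLR6) and in 58.7% of all promoters. Such matches are descriptions of letters, and those of opposite strands can overlap. The promoters of IRAK1 (83% G or C), TLR2 (72.7%) and IRAK2 (72%) were the richest in G and C, and those of TLR4 (48.3%) and TLR6 (34.7%) the poorest, beside a median of 58.7% over all promoters.

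IRAK1, on chromosome X, encodes a kinase that IRAK4 phosphorylates. It had 691, 776, 688 and 948 CPM in TNF replicates 1 to 4, against 773, 924, 948 and 1038 CPM in the NT replicates. The ranges of the groups overlapped, with replicate 4 the highest in each. Within each experiment the TNF library was below its NT library, by 0.13 to 0.46 on the log2 scale. The log2 fold change of IRAK1 was -0.25 (SE 0.12), which was not past the threshold, and with the experiment date as a replicate block it was past it, as lower in TNF-treated cells.

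IRAK4 encodes the kinase that joins MyD88 first. Its level was 8.73, 6.33, 9.70 and 5.33 CPM in TNF replicates 1 to 4, against 8.05, 7.08, 7.15 and 7.17 CPM in the NT replicates. The TNF libraries lay on both sides of the NT libraries, with a mean of 7.52 ± 2.04 CPM in TNF and 7.36 ± 0.462 CPM in NT cells (SD, n = 4 each). The log2 fold change was 0.03 (SE 0.18), with a 95% confidence interval of the fold from 0.776 to 1.35, and its sign changed with the scaling. IRAK4 shares 103 exon bases with TWF1 on the opposite strand, and the strand setting of the counting was not found in the sources used here. TWF1 had 72463.51 counts over the 8 libraries, beside 1093.76 for IRAK4 over the TNF and 1088.9 over the NT libraries.

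IRAK3 encodes a member of the family that restrains signalling and is known mainly from monocytes and macrophages. It had 2, 1, 2 and 0 counts in TNF replicates 1 to 4, against 2, 0, 0 and 0 counts in the NT replicates. These 5 and 2 counts in all are too few for a comparison at this depth, since no library was above a floor of 3 counts.

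Set against exon length, IRAK1 was far the most abundant of the 4 kinase genes in both groups. Levels of different genes were compared as CPM per kilobase of merged exons. In this measure IRAK1 averaged 182 ± 28.6 in TNF and 216 ± 25.8 in NT cells, and IRAK2 averaged 11.6 ± 0.234 in TNF and 0.863 ± 0.120 in NT cells (SD, n = 4 each). Within a library, IRAK1 was 13.6 to 18.8 times as abundant as IRAK2 in TNF libraries and 195 to 313 times in NT libraries. IRAK2 thus made up 5.03% to 6.79% of the summed IRAK level in TNF libraries, against 0.317% to 0.506% in NT libraries. These ratios are taken inside a library and do not depend on its scaling, but they do depend on the gene lengths used. Per kilobase of the canonical transcript, IRAK4 averaged 1.76 in TNF and 1.72 in NT cells, against 1.03 and 1.01 per kilobase of merged exons. IRAK1 per IRAK4 overlapped between groups, at 122 to 305 in TNF libraries and 165 to 248 in NT libraries.

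**Figure D2:**
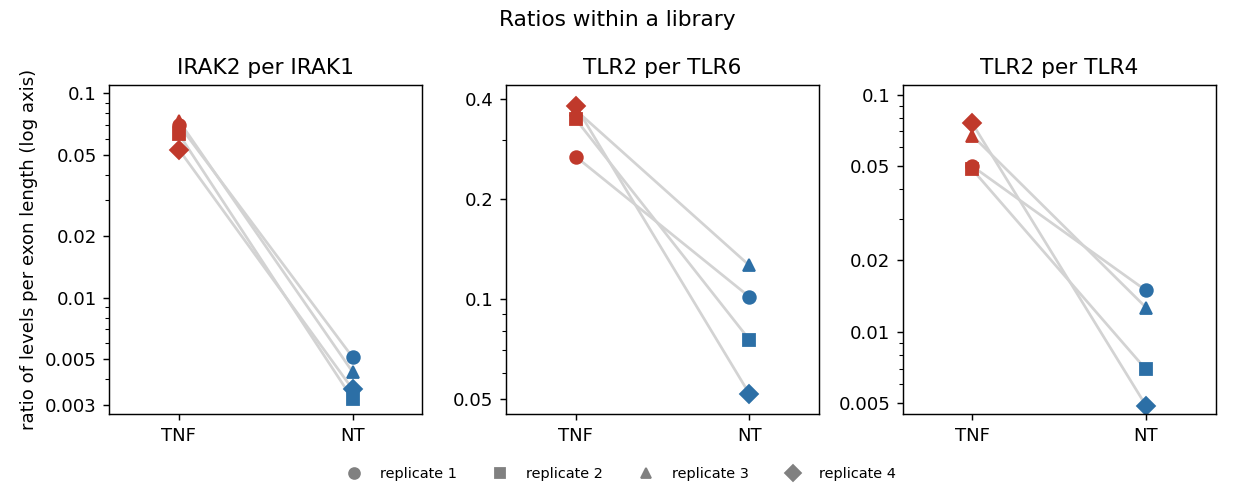
Ratio of the length-scaled levels of IRAK2 and IRAK1, TLR2 and TLR6, and TLR2 and TLR4 (y axis, log scale) within each TNF and NT library, with lines joining libraries of the same experiment. In all 3 panels the 4 TNF libraries lie above the 4 NT libraries.

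Over the 8 libraries, the genes whose log2 CPM followed that of IRAK2 most closely were FDCSP, NMNAT2 and MEAK7 (Pearson r of 0.999, 0.999 and 0.998). The libraries fall into 2 groups, so these r values mainly carry the distance between TNF and NT, and 79 of the 12355 genes compared had an r above 0.99. The log2 fold changes of FDCSP, NMNAT2 and MEAK7 were 9.56, 2.21 and 1.56.

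The adaptor gene MYD88, on chromosome 3, had 42.6, 45.7, 43.6 and 53.4 CPM in TNF replicates 1 to 4, against 33.5, 35.6, 34.7 and 43.1 CPM in the NT replicates. NT replicate 4 reached into the TNF range, and replicate 4 was the highest of both groups. Within an experiment the difference was 0.31 to 0.36 on the log2 CPM scale in the 4 pairs (mean 0.33, SD 0.0222) with TMM scaling, while with library totals the mean was 0.25 and replicate 4 was at 0.19. MYD88 was past the threshold as higher in TNF-treated cells, by 1.26-fold with a 95% confidence interval from 1.08 to 1.48 (log2 fold change 0.33, SE 0.10).

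TRAF6, the ubiquitin ligase gene on chromosome 11, had 14.1, 16.8, 12.7 and 17.7 CPM in TNF replicates 1 to 4, against 11.8, 12.5, 11.1 and 14.6 CPM in the NT replicates. As for MYD88, replicate 4 was the highest of both groups and the ranges overlapped. The TNF library was above its NT library in 4 of 4 experiments, by 0.19 to 0.43 on the log2 CPM scale. Its log2 fold change of 0.29 (SE 0.13) was not past the threshold without the experiment date in the model and was past it with the date as a replicate block.

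Among the surface receptors, TLR2 differed most between groups. TLR2, on chromosome 4 (GRCh38, 153684070 to 153706260, plus strand), encodes the shared partner in lipopeptide receptors. It had 2.41, 2.46, 3.38 and 2.98 CPM in TNF replicates 1 to 4, against 0.727, 0.437, 0.755 and 0.317 CPM in the NT replicates. The groups did not overlap, although the gene was low in both, with 80 to 146 counts in TNF libraries and 10 to 34 counts in NT libraries. The fold was 4.96 with a 95% confidence interval from 3.22 to 7.64 (log2 fold change 2.31, SE 0.28). IRAK2 and TLR2 were the 2 genes of the 9 whose TNF libraries were all above the NT libraries, which held for 15.6% of all genes tested. None of the 9 had all TNF libraries below the NT libraries (0 genes, 11.7% of all genes), and the groups of 27.3% of all genes did not overlap in either direction.

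Among the leukocyte markers, CSF1R moved in the same direction as TLR2, at 0.886 ± 0.325 CPM in TNF and 0.146 ± 0.0569 CPM in NT cells (SD, n = 4 each), and ITGAM had 69 counts over the TNF libraries and 2 over the NT libraries. LYZ moved the other way, at 3.10 ± 1.5 CPM in TNF and 5.80 ± 0.937 CPM in NT cells. Markers of other cell types also moved. KRT5, a keratinocyte keratin gene, averaged 1.61 ± 0.450 CPM in TNF and 0.195 ± 0.0724 CPM in NT cells, PECAM1, an endothelial gene, 2.30 ± 0.560 CPM in TNF and 0.311 ± 0.114 CPM in NT cells, and DCN, a fibroblast gene, 1.48 ± 0.707 CPM in TNF and 0.550 ± 0.184 CPM in NT cells, all past the threshold as higher. KRT14, another keratinocyte keratin gene, was past it as lower, at 8.39 ± 1.30 CPM in TNF and 18.3 ± 2.98 CPM in NT cells. KRT5, PECAM1 and CSF1R passed the filter on low counts through their TNF libraries, so their differences are descriptions. In NT libraries KRT5 had 4.33 to 13.3 expected counts, PECAM1 6 to 21 and CSF1R 2 to 8. VWF, another endothelial gene, averaged 0.226 ± 0.151 CPM in TNF and 0.681 ± 0.318 CPM in NT cells. It was not past the threshold, and all TNF libraries were below the NT libraries. CDH5, also endothelial, had 15 counts over the TNF libraries and 25 over the NT libraries. Of the other fibroblast genes, LUM and PDGFRA had lower means in TNF cells, not past the threshold, and COL1A2 had 2 counts over the TNF libraries and 33 over the NT libraries. The summed lists ran from 2.12 to 3.43 CPM in TNF and 0.825 to 1.80 CPM in NT libraries for 3 endothelial markers, 8.59 to 12 CPM in TNF and 16.1 to 22.4 CPM in NT libraries for 3 keratinocyte markers, and 2.59 to 7.01 CPM in TNF and 3.11 to 7.14 CPM in NT libraries for 4 fibroblast markers. The part of other cells in the level of TLR2 was not tested, and PTPRC was at 2 counts over the TNF libraries and 1 over the NT libraries.

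A stretch of 30 bases before the RefSeq start of TLR2 is shown for the match to the looser form that lies nearest to it (GRCh38.p14, chr4:153684235-153684264, plus strand, 45 to 16 bases before the start). Capitals mark the match, which reads GGGAAAGTCC on the opposite strand, and the stretch lies within the first exon of a GENCODE transcript that starts further upstream.
TLR2: ccggccgcgcGGACTTTCCCttttgcttac

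TLR6, also on chromosome 4 and a partner of TLR2, had 10.7, 8.39, 10.8 and 9.29 CPM in TNF replicates 1 to 4, against 8.5, 6.88, 7.11 and 7.27 CPM in the NT replicates. The overlap of the groups came from TNF replicate 2 and NT replicate 1. TLR6 was past the threshold as higher in TNF-treated cells, by 1.32-fold with a 95% confidence interval from 1.09 to 1.59 (log2 fold change 0.40, SE 0.13).

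TLR1, the other partner of TLR2, was near the limit of detection. It had 0.438, 0.405, 0.394 and 0.163 CPM in TNF replicates 1 to 4, against 0.348, 0.222, 0.386 and 0.128 CPM in the NT replicates. These rest on 5.03 to 17 expected counts in TNF libraries and 4.03 to 16.3 in NT libraries, and replicate 4 was the lowest of both groups. The interval of the fold, from 0.680 to 2.46, holds both a fall and a rise, so that no difference was detectable at this depth. TLR1 and TLR6 share 57 exon bases on the same strand, and their expected counts were not whole numbers (by more than 0.005) in 7 libraries for TLR1 and 8 for TLR6, as happens where RSEM divides reads between genes.

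TLR4, the lipopolysaccharide receptor gene on chromosome 9, had a lower mean in TNF-treated cells. Its level was 110.9, 116.6, 115.6 and 90.4 CPM in TNF replicates 1 to 4, against 111.8, 144.8, 137.1 and 149.5 CPM in the NT replicates. NT replicate 1 lay among the TNF libraries, and TNF replicate 4 was the lowest of all. In 4 of 4 experiments the TNF library was below its NT library, by 0.01 in replicate 1 and by 0.73 in replicate 4 on the log2 CPM scale. The log2 fold change was -0.33 (SE 0.11), with a 95% confidence interval of the fold from 0.675 to 0.945, which was not past the threshold after adjustment over all genes. With the experiment date as a replicate block it was past the threshold as lower in TNF-treated cells. Without the 3 libraries with more ribosomal RNA (TNF replicate 4, NT replicates 2 and 4), the log2 fold change of TLR4 was -0.12 and not past the threshold. TLR4 shares 678 exon bases with another gene model on the same strand. That model had 78.04 counts over the 8 libraries, beside 15446.37 for TLR4 over the TNF and 19599.76 over the NT libraries. The expected counts of TLR4 were not whole, at the same tolerance, in 8 of 8 libraries.

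**Figure D3:**
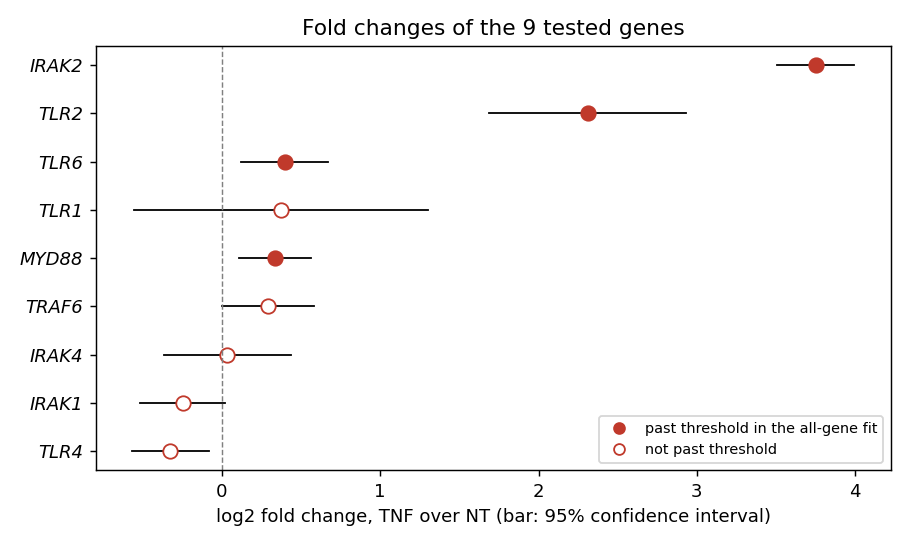
Log2 fold change of the 9 tested genes, TNF over NT (x axis, points), with 95% confidence intervals (bars), ordered by size. IRAK2 (3.75) and TLR2 (2.31) lie far to the right of the other 7 genes, which lie between -0.33 and 0.40.

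Relative to each other, TLR2 and TLR6 took a larger mean share of the summed level of the surface receptors per exon length in TNF-treated cells, although TLR4 still held most of it. TLR4 made up 78.1% to 83.5% of that sum in TNF libraries and 85.4% to 90.8% in NT libraries. TLR2 made up 4.0% to 5.92% in TNF libraries and 0.443% to 1.28% in NT libraries. TLR6 made up 11.6% to 15.6% in TNF libraries and 8.34% to 12.6% in NT libraries, which overlapped. These shares sum to the whole, so they do not move independently, and they depend on the gene lengths used. Per kilobase of the canonical transcript, TLR2 averaged 0.780 in TNF and 0.155 in NT cells, against 0.486 and 0.0968 per kilobase of merged exons. TLR6 was 2.63 to 3.73 times as abundant as TLR2 in TNF libraries and 7.94 to 19.3 times in NT libraries. TLR4 was 13.2 to 20.7 times as abundant as TLR2 in TNF libraries and 66.9 to 205 times in NT libraries. For TLR2 over TLR1 the ratios were 4.32 to 14.4 in TNF libraries and 1.54 to 1.95 in NT libraries, and rest on the few counts of TLR1.

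In order of CPM per kilobase of exon, the TNF cells had IRAK1, IRAK2, MYD88, TLR4, TRAF6, TLR6, IRAK4, TLR2, TLR1 and IRAK3, and the NT cells had IRAK1, TLR4, MYD88, TRAF6, TLR6, IRAK4, IRAK2, TLR2, TLR1 and IRAK3. IRAK2 was second in TNF cells and seventh in NT cells, and the remaining genes kept their places relative to each other except that MYD88 and TLR4 were exchanged. In TNF cells the libraries of IRAK2 (11.4 to 11.9) and MYD88 (10.2 to 12.7) overlapped, as did those of TRAF6 and TLR6 and of TLR6 and IRAK4. In NT cells those of TLR4 (8.42 to 11.3) and MYD88 (8.0 to 10.3) overlapped, as did those of TLR6 and IRAK4 and of TLR2 and TLR1. Percentiles were taken among the 16141 genes that passed the filter on low counts and had an exon length. IRAK2 lay at the 77.5th percentile in TNF cells and the 29.6th in NT cells. TLR2 lay at the 20.8th in TNF and the 5.32nd in NT cells, and IRAK1 at the 98.7th in TNF and the 99.0th in NT cells. With the length of the canonical transcript in place of merged exons, a choice made after the data were seen, MYD88 came before IRAK2 in TNF cells and before TLR4 in NT cells, and IRAK4 came before TLR6 in both and before TRAF6 in NT cells.

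The smaller differences depended on how the counts were handled. Over 18 alternative settings, IRAK2 and TLR2 were past the threshold in 18 of 18, with log2 fold changes of 3.62 to 3.8 for IRAK2 and 1.89 to 2.47 for TLR2. MYD88 was past it in 12 (0.25 to 0.41) and was not past it with library totals as the only scaling or without TNF replicate 2 or 4 or NT replicate 1, 2 or 3. TLR6 was past it in 8 (0.31 to 0.47) and was not past it with upper-quartile factors, library totals or no filter, without TNF replicate 1 or 3 or NT replicate 2, 3 or 4, or without the libraries of the fourth date or those with more ribosomal RNA. TLR4 was past it as lower in 7 of 18 (-0.41 to -0.12), among them DESeq2, the replicate block and the fit without NT replicate 1. IRAK1 was past it as lower in 4 (-0.36 to -0.19), namely library totals, the replicate block, and the fits without TNF replicate 4 or without both libraries of the fourth date. TRAF6 was past it in 1, the replicate block, IRAK4 in 0 of 18 and TLR1 in 0 of 17.

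**Figure D4:**
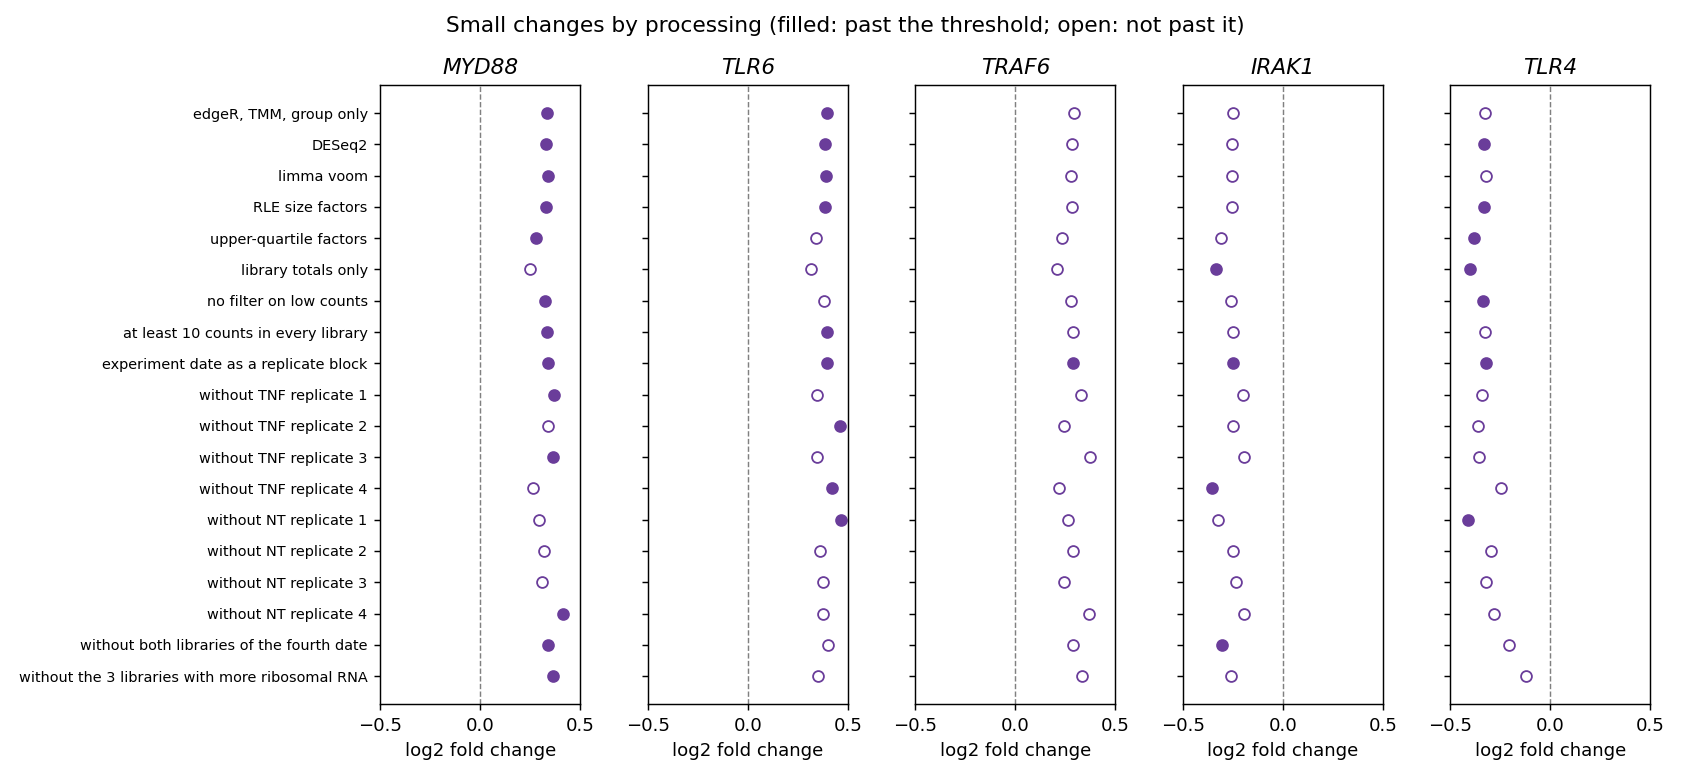
Log2 fold change, TNF over NT (x axis), of MYD88, TLR6, TRAF6, IRAK1 and TLR4 under the group-only edgeR fit and 18 alternatives (rows), with filled points past an adjusted p of 0.05 and open points not past it. Each gene keeps its sign in all of them, and the number of filled alternatives runs from 12 for MYD88 to 1 for TRAF6.

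Around these genes, 45 other pathway genes in 7 lists were examined, of which 33 passed the filter. In edgeR, 10 rose, 3 fell and 20 did not pass the test (13 and 4 without adjustment, 11 and 3 by DESeq2, 10 and 3 by limma voom), beside 14.5% higher and 9.90% lower of all genes. With the experiment date as a replicate block the counts were 14 higher and 5 lower, with TLR5, TICAM2, PELI1 and DUSP1 added as higher and CNPY3 and PELI3 as lower. TLR5 and IL1R1, which was among the 10 that rose, had few counts in NT libraries and passed the filter through their TNF libraries. The median log2 fold change of the 33 genes was 0.13. The lists were chosen with earlier results of these data known, so these counts are not evidence about the pathway beside the shares of all genes. Genes given an adjusted p-value below were named because they passed the threshold, so these p-values are descriptions.

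The receptors of the IL-1 family that also use MyD88 had the highest median log2 fold change of the 7 lists (2.24), with 3 of 4 tested genes higher and 1 lower. The other 2 listed receptors, IL18RAP and IL1RL2, did not pass the filter on low counts. IL1R1 had 20 to 42 counts in TNF libraries and 4 to 14 in NT libraries, and was not tested when at least 10 counts were required in every library. The median and the count thus rest in part on a gene kept through its TNF libraries. IL1RL1, the receptor gene of IL-33, averaged 39.0 ± 1.43 CPM in TNF and 6.77 ± 1.71 CPM in NT cells (log2 fold change 2.53, adjusted p = 1.23e-06 from edgeR). IL18R1, a chain of the IL-18 receptor, averaged 2.86 ± 0.347 CPM in TNF and 0.406 ± 0.0309 CPM in NT cells (log2 fold change 2.80, adjusted p = 5.01e-06 from edgeR), while its partner IL18RAP had 2 counts over the TNF libraries and 0 over the NT libraries. IL1R1, the signalling receptor gene of IL-1, was low, at 0.998 ± 0.312 CPM in TNF and 0.267 ± 0.184 CPM in NT cells (log2 fold change 1.95, adjusted p = 0.0123 from edgeR, which became 0.0505 when TNF replicate 4 and NT replicates 2 and 4 were left out). IL1RAP, the accessory chain shared by IL1R1 and IL1RL1, fell by 0.60 on the log2 scale, to 8.99 ± 1.81 CPM in TNF, against 13.7 ± 1.71 CPM in NT cells (adjusted p = 0.0141 from edgeR). The groups overlapped, with TNF replicate 4 at 11.6 CPM and NT replicate 3 at 11.4 CPM.

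Among the adaptors, TICAM1, which carries TLR3 and TLR4 signals independently of MyD88, averaged 64.2 ± 4.27 CPM in TNF and 28.6 ± 1.55 CPM in NT cells (log2 fold change 1.17, adjusted p = 2.16e-06 from edgeR). TIRAP, which brings MyD88 to TLR2 and TLR4, rose by 0.47 on the log2 scale (adjusted p = 0.00478), and SARM1, an inhibitory adaptor, fell by 0.42 (adjusted p = 0.00265, both from edgeR). For the other Toll-like receptors, 2 of 6 were tested and 0 passed (1 higher without adjustment of p, 0 by DESeq2 or limma voom). With the experiment date as a replicate block TLR5 was past the threshold as higher. It had 13 to 29 counts in TNF libraries and 4 to 18 in NT libraries. TLR5 passed the filter through its TNF libraries, and was not tested when at least 10 counts were required in every library. TLR3 averaged 4.64 ± 0.637 CPM in TNF and 4.69 ± 0.709 CPM in NT cells, and TLR5 0.593 ± 0.213 CPM in TNF and 0.291 ± 0.120 CPM in NT cells.

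Of the accessory proteins of these receptors, 4 of 8 were tested. Of these, 0 passed in the group-only edgeR fit, with or without adjustment of p, in DESeq2 or in limma voom. With the experiment date as a replicate block CNPY3 was past the threshold as lower. The TLR4 partners were barely detected. LY96, which binds lipopolysaccharide with TLR4, had 42 counts over the 4 TNF libraries and 18 over the 4 NT libraries, and TNF replicate 2 had 0. CD14 had 24 counts over the TNF libraries and 24 over the NT libraries, and LBP had 13 over the TNF libraries and 12 over the NT libraries.

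Of 10 partners of the IRAK proteins and TRAF6, 1 rose and 0 fell: TAB2, an adaptor of the TAK1 kinase complex, with 85.3 ± 4.09 CPM in TNF and 62.6 ± 3.33 CPM in NT cells (log2 fold change 0.45, adjusted p = 0.000821 from edgeR). Of 6 inhibitors tested, 2 rose and 1 fell. TNFAIP3, the gene of the ubiquitin-editing enzyme A20, averaged 59.1 ± 15.3 CPM in TNF and 4.97 ± 0.844 CPM in NT cells (log2 fold change 3.56, adjusted p = 9.29e-07 from edgeR). CYLD, a deubiquitinase gene, rose by 1.2 on the log2 scale (adjusted p = 3.66e-05), and RNF216, named after its value was seen, fell by 0.30 (adjusted p = 0.00734, both from edgeR). Of the 3 interferon regulatory factors, IRF1 and IRF7 rose, with log2 fold changes of 2.0 and 1.22 (adjusted p = 5.46e-06 and 8.34e-05 from edgeR), and IRF5 was not past the threshold.

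**Figure D5:**
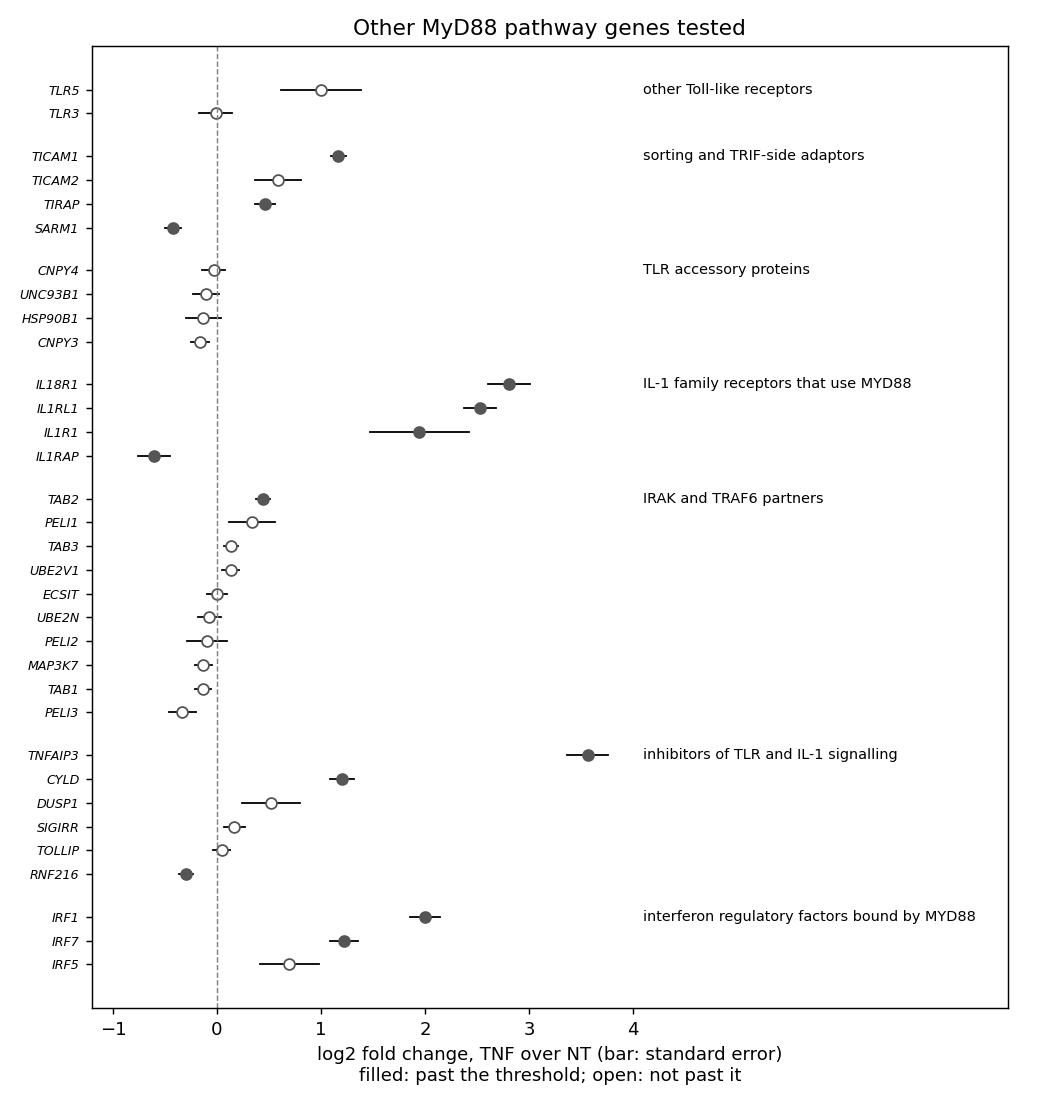
Log2 fold change, TNF over NT (x axis, points), with standard errors (bars) for the 33 tested genes of 7 lists of other MyD88 pathway genes, grouped by list, with filled points past an adjusted p of 0.05. TNFAIP3 (3.56), IL18R1 (2.80) and IL1RL1 (2.53) lie farthest to the right and IL1RAP (-0.60) farthest to the left.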

How the data were processed

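Polyadenylated RNA of A375 cells was sequenced in 4 TNF and 4 NT libraries. Per their methods, the authors used bowtie2 to align reads to GRCh38 transcripts and RSEM 1.2.25 to count them. What they deposited is expected counts for each gene, with no normalization. The bowtie2 version, read filters and strand setting: not given in the sources used here. Groups and replicate numbers came from the treatment and date in the sample titles. The table of the whole series, whose columns match the titles, was used, because each NT sample's own file holds the values of an NT library of a different date. In that table libraries of the same date deviated together from their group means (correlations 0.351, 0.169, 0.238 and 0.460, beside at most 0.109, 0.0862, 0.226 and -0.0666 for the TNF library with an NT library of another date), so the date was taken to pair them. Block and within-date values depend on these dates.

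Expected counts were rounded, filtered (edgeR, minimum count 10, total 15), scaled by TMM and fitted in edgeR 4.0.16 under R 4.3.3 (robust quasi-likelihood test, group only). P-values were Benjamini-Hochberg adjusted over 16186 genes, with a threshold of 0.05. The steps were run on simulated data with the same dispersion for all genes and no effect of date. That run does not test them under the date pairing seen here. For log2 CPM the prior count was 2. Alternatives were DESeq2 1.42.0, limma 3.58.1 voom, other scalings and filters, the date block, left-out libraries and a threshold of 0.01. Gene positions and exon lengths came from GENCODE 44 (GRCh38), promoters from RefSeq (GRCh38.p14). The authors' methods name a different release label for the transcripts counted. Exon lengths and shared exon bases may therefore differ from those behind the counts, which was not tested. Members, gene lists, tests and naming rule were chosen with earlier results of these data known. Pathway genes named by the rule are the 12 past the threshold with the largest absolute log2 fold change. RNF216 and pathway genes not past the threshold in the group-only fit were named outside this rule. Protein sequences were not used here.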

Additional observations from a re-analysis of the deposited data

Results flagged for a closer look

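Among 42 groups of 4 libraries of the named genes, 4 held a library whose gap to its nearest neighbour was, as a share of the group's range, above the critical value of Dixon's test, where chance gives about 2.1 such groups. For IRAK4, NT replicate 1 had 3.02 log2 CPM and the other NT libraries 2.83 to 2.85. For TLR1, TNF replicate 4 had -2.20 log2 CPM and the other TNF libraries -1.15 to -1.02, and this library held 5.03 expected counts of the gene. For TICAM1, TNF replicate 1 had 6.14 log2 CPM and the other TNF libraries 5.95 to 5.97. For TAB2, NT replicate 1 had 6.08 log2 CPM and the other NT libraries 5.93 to 5.94.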

How the results depend on the processing

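Over all genes, 2345 were higher and 1603 lower in TNF-treated cells. Scaling moved this split: upper-quartile factors gave 2045 and 2196 genes, and library totals 1925 and 2514. At an adjusted p under 0.01, 1548 genes were higher and 772 lower, and 2 of the 10 pathway components were higher. With the experiment date as a replicate block, which pairs the libraries, 3451 genes were higher and 2946 lower, 5 of the components were higher and 2 lower (IRAK1 and TLR4), and 14 of the other pathway genes were higher and 5 lower. The components with a lower level numbered 1 with DESeq2, RLE factors, upper-quartile factors, no filter and without both libraries of the fourth date, and 2 with library totals, which left 2 higher. Leaving out 1 library at a time gave 2 to 3 higher and 0 to 1 lower components, 10 to 11 higher and 3 lower pathway genes, and over all genes 1880 to 2521 higher and 1110 to 1896 lower. The sign of IRAK4 turned with upper-quartile factors (-0.0198) and library totals (-0.0412), and without TNF replicate 1 (-0.05) or 3 (-0.11), and its log2 fold change ran from -0.11 to 0.17 over libraries left out. The cause of these changes was not tested. TLR1 and IRAK3 had few counts in both groups, and TLR2 had 10 to 34 counts in NT libraries. The part of these few counts in the width of the interval of TLR2 was not tested.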
